A study of Mus musculus with 18 samples.

Results

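The cytoplasmic ribosomal protein (RP) genes code for the proteins of the ribosome outside mitochondria. In these data they were the 84 of 31053 annotated features whose symbols begin with Rps or Rpl followed by a number, together with Rplp0, Rplp1, Rplp2 and Rpsa. Names marked as pseudogenes were left out, and the rule reads symbols alone. The small subunit contributed 32 of the members and the large subunit 52. Ribosomal proteins are made in matched amounts and join ribosomal RNA in the nucleolus, and surplus protein is degraded. Many of their mRNAs start at a C inside a run of pyrimidines, the terminal oligopyrimidine (TOP) motif, through which mTOR signalling adjusts the translation of the whole family. In the mammary gland, alveolar cells divide and build ribosomes in pregnancy, and in lactation a handful of milk protein mRNAs take over most of their message.

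The study profiled sorted mouse mammary cells with droplet 3′ single-cell RNA-seq, in which each unique molecular identifier (UMI) marks 1 captured mRNA. There were 18 libraries, each made from pooled animals after removal of blood and endothelial cells by flow cytometry. From C57BL/6 mice came the E18.5 mammary rudiments and adjacent skin of Lgr5-GFP embryos, glands of postnatal day 5 and of pre-puberty (2.5 weeks), the terminal end buds (TEB) and ducts dissected at 5 weeks from Ecadherin-GFP females, and the adult gland at 10 weeks. SWISS mice gave 1 adult library of 10 weeks. FVB/NJ mice gave 3 adult libraries of 10 weeks (A10, P7 and D12), 2 of pregnancy day 12.5 (H and G), 2 of pregnancy day 18.5 (F4 and B4), 2 of lactation day 10 (F11 and D6) and 1 of 3 weeks after involution. No group carried an experimental treatment or a deleted gene. Only the first 4 of these FVB/NJ stages had more than 1 library. In stage comparisons every other stage is therefore given as values with counting error alone, and p-values measure only the spread between those FVB/NJ libraries. The comparison of adult classes pairs the classes within each of the 5 adult libraries, C57BL/6 and SWISS included.

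The study's limits on genes, counts and mitochondrial share left 132599 of 149371 barcodes, and library totals ran from 9920346 to 93234616 UMIs. Cells were gated by fixed marker lists as basal (myoepithelial, 43552 cells), luminal progenitor or alveolar (LP/alveolar, 39162 cells), mature luminal (ML, hormone-sensing, 21647 cells) or fibroblast (12472 cells), none of which used an RP gene. Basal-gated cells held a median of 90 basal and 3 luminal marker UMIs, LP/alveolar-gated cells 53 LP/alveolar and 1 ML, and ML-gated cells 66 ML and 2 LP/alveolar. The cuts are ranges along a continuum, and 8.61% of cells lay within 0.1 of a basal or luminal cut and 3.45% within 0.1 of an LP or ML cut. The gate was less clear in the E18.5 mammary library, where those shares were 20.5% and 24.04% and 38.2% of cells reached no class, and in D12, where 20.1% lay near a basal or luminal cut. Library P7 stood apart before any comparison. It had the fewest UMIs, barcodes of 14 bases where the other 17 libraries had 16, and mitochondrial genes at 0.328% to 0.561% of counts in its gated classes. Values without P7 are given beside the results it bears on. The methods name a single capture kit for all libraries. At most 253 barcodes were shared by any 2 libraries, and the shared share of the smaller library was at most 2.58% over all pairs.

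The pyrimidine run at the transcription start is the sequence feature the family is known for, so the starts of members that the results below turn on are shown first, as far as the table held them. Each line gives 15 bases before and 15 bases from the RefSeq start on the gene's strand (GRCm38.p6), with capitals marking the longest run of C and T that touches the 5 bases on either side of the start. Rplp2, a stalk protein, is shown as a plain TOP example.
Rplp2 (chr7:141447636-141447665, + strand): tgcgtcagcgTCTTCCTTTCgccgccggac
Rpl35 (chr2:39005117-39005146, - strand): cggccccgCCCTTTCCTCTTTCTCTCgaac
Rpl38 (chr11:114668565-114668594, + strand): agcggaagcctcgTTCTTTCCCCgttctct
Rpl22l1 (chr3:28805493-28805522, + strand): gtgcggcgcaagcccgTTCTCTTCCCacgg
Rpl39 (chrX:37085208-37085237, - strand): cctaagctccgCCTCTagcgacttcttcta
Rpl39l (chr16:10170213-10170242, + strand): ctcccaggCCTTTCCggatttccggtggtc
Rps27l, first start (chr9:66946071-66946100, + strand): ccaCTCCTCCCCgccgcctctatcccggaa
Rps27l, second start (chr9:66946398-66946427, + strand): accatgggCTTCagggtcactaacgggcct
Rplp0 (chr5:115559452-115559481, + strand): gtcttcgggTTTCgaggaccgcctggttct
Rps2 (chr17:24720048-24720077, + strand): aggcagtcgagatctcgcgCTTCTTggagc
Rps28 (chr17:33824548-33824577, - strand): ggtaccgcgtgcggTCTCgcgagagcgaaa
The run was 18 bases long at Rpl35 and 10 at Rplp2, Rpl38 and Rpl22l1. It was 5 bases at Rpl39, 7 at its near-copy Rpl39l, 6 at Rps2, and 4 at Rplp0, Rps28 and the second start of Rps27l. A run of 8 or more C or T, read on the gene's strand only, touched the start of 24 of the 64 members with a start in the table (37.5%), against 3068 of all 27025 genes (11.4%). The other 20 members had no entry. These are letters at annotated starts and were not tied to the measurements by a test.

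In the adult gland RP genes were among the most counted. By mean CPM (UMI counts scaled to a common total, not divided by gene length) over the adult basal, LP/alveolar and ML sums, high members included Rpl13 at 6992, Rpl41 at 6136, and the ribosomal stalk genes Rplp0 at 5349 and Rplp1 at 5146. It took 29 members to reach 51.0% of RP counts, so no small set of members set the total. Of the paralogues, Rpl3l and Rpl10l, known from muscle and testis, were near absent, with 120 and 8 counts in all kept cells of the 18 libraries.

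The RP share of counts was lower at pregnancy day 18.5 than at day 12.5 in each gated epithelial class, and lower again in lactation in LP/alveolar cells, with the milk genes kept in the total or left out. In LP/alveolar cells RP genes held 33.6% of all counts in A10 and 35.0% in D12, 28.8% and 28.7% in H and G, 15.6% and 16.8% in F4 and B4, and 3.67% and 3.70% in F11 and D6. The last values sit beside 8 milk genes (caseins, Wap, Lalba and Glycam1) that took 76.1% and 77.9% of the same counts. With the milk genes left out of the total, LP/alveolar shares were 35.0% and 35.1% in A10 and D12, 33.4% and 33.6% at day 12.5, 23.6% and 26.1% at day 18.5, and 15.4% and 16.7% in lactation. These 4 stages did not overlap once P7 was set aside, whose share was 11.3%. As stage means without milk genes, LP/alveolar cells went from 33.5% ± 0.13 (SD, n = 2) at day 12.5 to 24.8% ± 1.75 (SD, n = 2) at day 18.5 and 16.0% ± 0.93 (SD, n = 2) in lactation.

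Basal cells, which contract to eject milk, followed the same order of stages. Their share without milk genes was 29.5% ± 0.97 (SD, n = 2) at day 12.5, 19.2% ± 2.16 (SD, n = 2) at day 18.5 and 16.9% ± 1.56 (SD, n = 2) in lactation, and the day 18.5 libraries (17.7% and 20.7%) overlapped the lactation libraries (15.8% and 18.0%). ML cells went from 28.2% ± 1.05 to 21.0% ± 1.71 and 19.3% ± 4.03 (SD, n = 2 each). Their lactation libraries stood at 22.1% and 16.4%, the first of them within the day 18.5 range of 19.8% to 22.2%. Milk genes in these classes moved with the decline. They held 1.36% and 1.04% of basal counts in H and G, 7.30% and 3.1% in F4 and B4 and 47.8% and 15.5% in F11 and D6, and in ML cells 1.09% and 0.786%, 3.13% and 1.27%, and 20.8% and 6.203%. Their part in the RP decline was not tested. Over all members, and without milk genes in the total, day 12.5 and day 18.5 libraries did not overlap in any of the 3 classes. Day 18.5 and lactation libraries did not overlap in LP/alveolar cells alone. Adult levels hung on P7. With it the adult LP/alveolar mean was 27.1% ± 13.7 (SD, n = 3), below day 12.5, and without it 35.0% ± 0.10 (SD, n = 2), above day 12.5. In basal cells the same pair of means was 23.6% ± 12.2 and 30.6% ± 0.12. In the post-involution library the shares were 25.02% (basal), 30.9% (LP/alveolar) and 25.6% (ML), between the lactation and the A10 and D12 values.

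**Figure D1:**
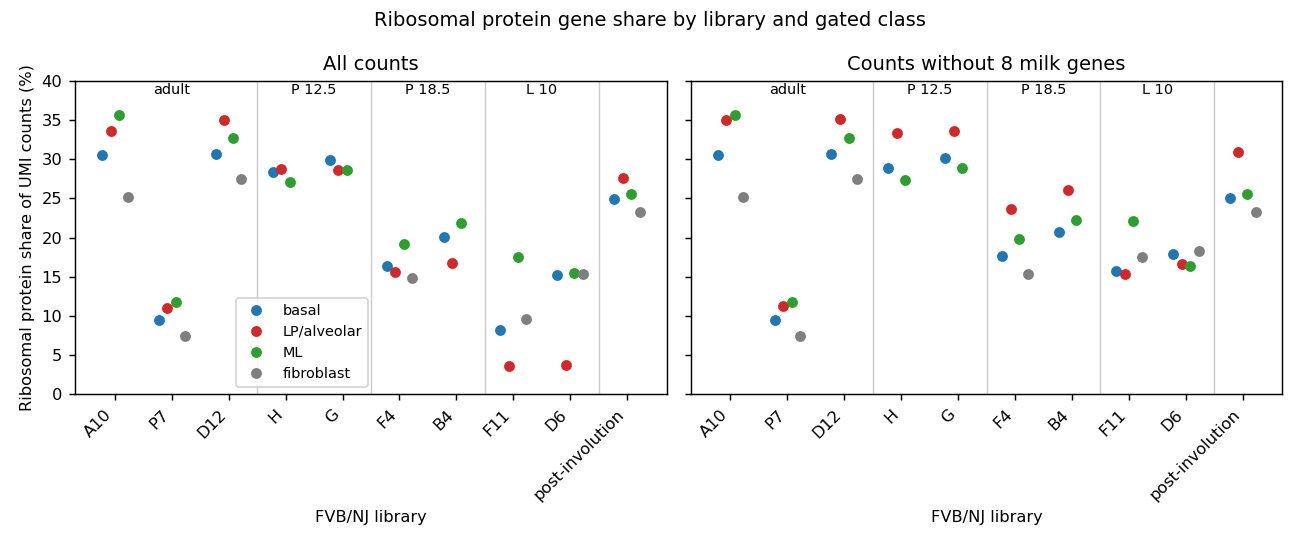
RP share of UMI counts (percent, y axis) in each FVB/NJ library (x axis) and gated class (colours), of all counts on the left and of counts without 8 milk genes on the right. Points are single libraries. LP/alveolar cells drop to 3.67% and 3.70% in lactation of all counts and to 15.4% and 16.7% without milk genes, and P7 lies far below A10 and D12 in each class.

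Single cells moved with the sums. The median LP/alveolar cell had an RP share without milk genes of 34.3% in A10, 34.8% in D12, 33.0% and 33.2% in H and G, 23.3% and 25.6% in F4 and B4, and 14.5% and 16.9% in F11 and D6. The quartiles of F11, 10.9% and 18.3%, lay below the lower quartile of either day 18.5 library. In UMIs per LP/alveolar cell, H and G held 2204 and 2203 RP UMIs of 6597 and 6559 non-milk UMIs. B4 held 2058 of 7892, close to H and G in RP UMIs and above them in non-milk UMIs, whereas F4 held 1086 of 4603. The lactation libraries held 387 of 2516 and 740 of 4431. Fewer RP mRNAs per cell and shallower capture cannot be told apart from these counts.

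Several marker lists moved with the same libraries, and their part in the RP share was not tested. The 6 cycling markers summed to 524 and 515 CPM in LP/alveolar cells of H and G, against 18 to 165 CPM in the adult libraries and 42 to 147 CPM at the later stages. Within H and G, cycling LP/alveolar cells had RP shares of 32.6% and 32.8%, below the 34.0% and 34.2% of cells without a cycling UMI. The 7 luminal markers summed to 5983 and 6022 CPM at day 12.5 and to 3455 and 3177 CPM in lactation. Fibroblasts, which make no milk protein, had RP shares without milk genes of 25.2% in A10, 27.5% in D12, 17.5% in F11 and 18.3% in D6, and 15.4% in the 24 gated cells of F4. The share was thus also lower outside the epithelium in F4, F11 and D6 than in A10 and D12, in few cells and without a test. Mitochondrial genes held 4.06% and 3.81% of LP/alveolar counts in H and G, 4.23% and 6.00% in F4 and B4, and 2.10% and 2.16% in F11 and D6. In ML cells they held 6.19% and 5.77%, 7.26% and 10.2%, and 4.62% and 12.7% in that order. With mitochondrial genes also left out of the total, the day 18.5 share was 0.768 times that of day 12.5 in LP/alveolar and 0.770 times in ML cells, against 0.741 and 0.745 with them in.

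Members of different length moved differently. The 84 members were split by coding length into 28 of 78 to 399 bases, 28 of 402 to 579 and 28 of 585 to 1260. In A10 and D12 the shortest members gave 33.9% to 36.4% of RP counts over the 3 epithelial classes and the longest 28.05% to 30.6%. In F4 the shortest gave 16.4% to 18.1% and the longest 43.4% to 46.6%. In P7 the shortest gave 4.6% to 5.6% and the longest 73.1% to 76.7%. The other libraries differed within their stages. B4 had 30.5% from the shortest and 35.0% from the longest members in basal cells, and 35.6% and 29.9% in LP/alveolar cells. F11 had 25.9% to 27.3% from the shortest and 33.3% to 34.8% from the longest over the 3 classes, where D6 had 33.1% to 38.8% and 26.3% to 31.6%. H had 29.99% to 31.3% from the shortest, below the 34.5% to 36.4% of G. The lean toward long members was thus strongest in P7 and F4, and the other libraries of a stage did not share its size. LP/alveolar and ML cells of D6 leaned toward short members.

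**Figure D2:**
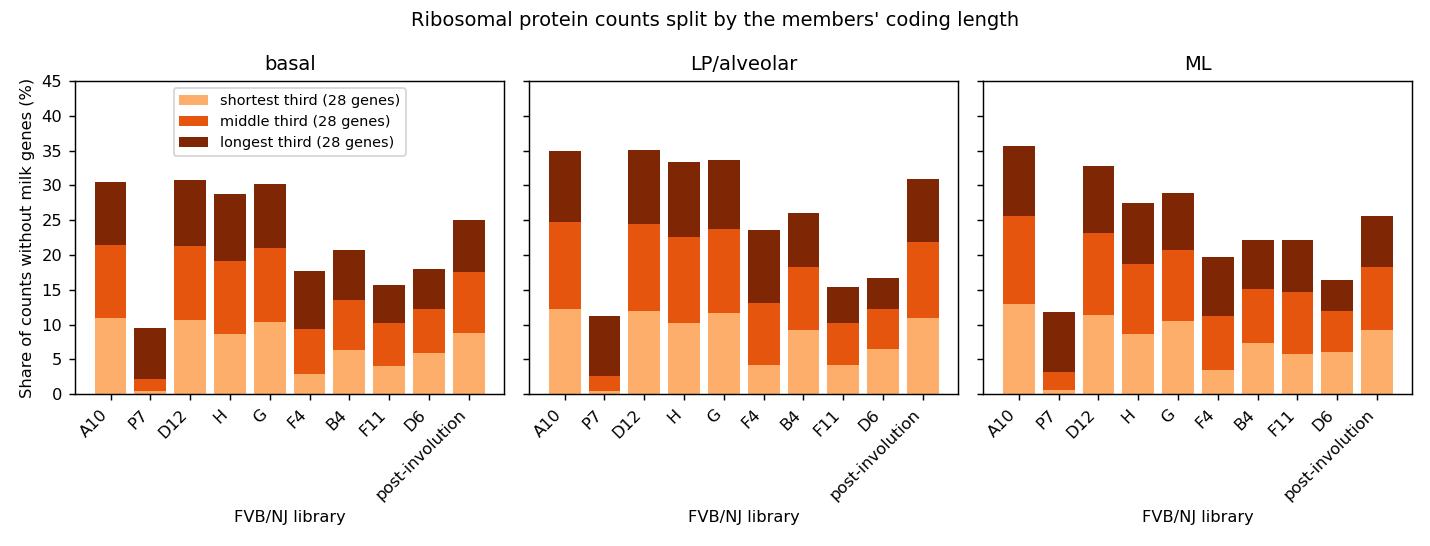
Share of counts without milk genes (percent, stacked bars from 0) held by the 28 shortest, 28 middle and 28 longest RP genes by coding length, per FVB/NJ library, in 3 gated classes. The pale short-gene part nearly vanishes in P7 (0.52% in LP/alveolar cells) and is small in F4 (4.27%), while the dark long-gene part varies less.

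In LP/alveolar cells the shortest members held 12.3% and 11.9% of non-milk counts in A10 and D12 and 0.52% in P7, and the longest held 10.2%, 10.7% and 8.61%. Most of the P7 deficit thus lay in short and middle members. Between F4 and B4 the shortest members held 4.27% and 9.27%, and the longest 10.5% and 7.80%, the opposite order. When only the 28 longest members were counted, the LP/alveolar share at day 18.5 was 0.880 times that at day 12.5, against 0.741 with all members, and the lactation share was 0.521 times that at day 18.5, against 0.646. In basal cells the same ratios were 0.821 (0.651 with all members) and 0.721 (0.878). The 28 shortest members held a mean of 4.61% of basal non-milk counts at day 18.5 and 5.01% in lactation, and of ML counts 5.45% and 5.95%. By the 28 longest members alone, F4 lay between the day 12.5 libraries in LP/alveolar cells (10.5%, against 9.91% in G and 10.8% in H). The same held in ML cells (8.59%, against 8.23% in G and 8.64% in H). Basal libraries of day 12.5 and day 18.5 did not overlap by these members. The size of each step, and for the basal and ML lactation step also its direction, therefore depended on which members were counted.

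Member by member, the log2 departure of each gene's share of RP counts from the A10 and D12 mean was set against coding length for 81 members. In P7 Spearman's rho was 0.92 in each epithelial class. In F4 rho was 0.86 for basal, 0.78 for LP/alveolar and 0.81 for ML cells, and in B4 it was 0.56, 0.02 and 0.32 in that order. In G, rho lay between -0.17 and -0.05. These are descriptions over genes that share a library, and genes are not independent replicates. In LP/alveolar cells of P7 the median departures were -2.77 for the shortest, -1.22 for the middle and 1.08 for the longest members. Genes outside the family were read on another scale, as a share of counts without milk and RP genes. On it their medians were -1.51, -0.31 and 0.30 in the same coding length ranges, and -0.50 where they were longer than every member. The scales differ, so medians of members and of other genes cannot be set against each other in sign or size. Of non-milk counts the longest members held less in P7 (8.61%) than in A10 and D12 (10.2% and 10.7%). In F4 the members' medians were -0.84, 0.07 and 0.56, while those of other genes were -0.17, -0.05 and -0.27, and -0.48 for the longer ones. In basal cells of F4 the members' medians were -0.99, 0.08 and 0.66 and those of other genes -0.25, -0.01 and -0.07, and genes longer than every member were at -0.30. Fragment length per library was not analysed here.

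**Figure D3:**
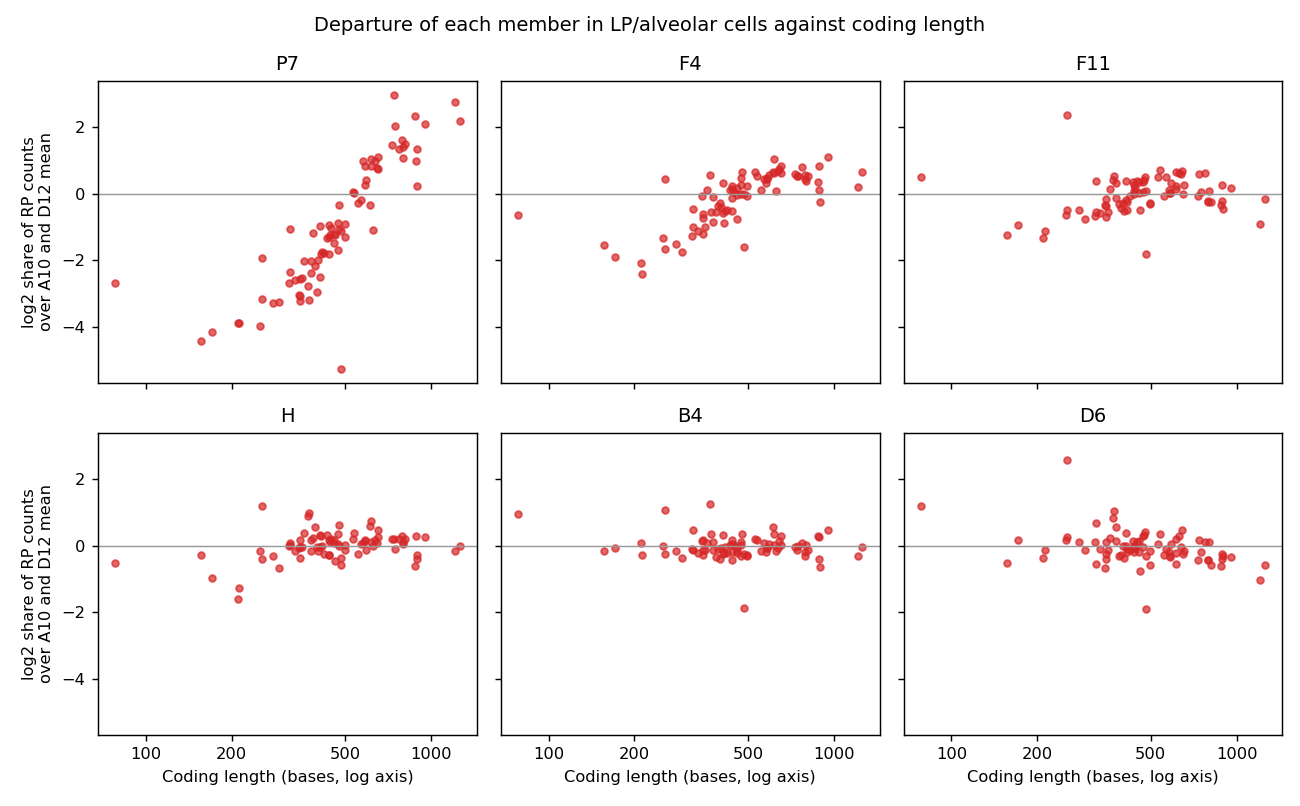
Log2 ratio of each member's share of RP counts in LP/alveolar cells to its mean share in A10 and D12 (y axis) against coding length in bases (x axis, log scale), for 6 libraries and 81 members. Points rise steeply from left to right in P7 (rho 0.92) and less steeply in F4 (rho 0.78), and lie near 0 in B4 (rho 0.02). The high point in F11 and D6 is Rps27l.

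Few single members passed a test between successive stages. In edgeR's quasi-likelihood test with Benjamini-Hochberg adjustment over all genes, 1 of 82 members was called from adult to day 12.5 in basal cells, where 0.722% of all genes were called, and 1 of 82 in LP/alveolar cells, where 12.3% were. The called gene was Rpl39l both times. In ML cells 0 of 81 were called at that step (6.96% of all genes), and 1 had an unadjusted p under 0.05. From day 12.5 to day 18.5, 0 members were called in any class, against 0.00752%, 0.703% and 0.0247% of all genes for the basal, LP/alveolar and ML sums, and 1, 1 and 0 members had an unadjusted p under 0.05. Without P7, Rpl39l was called at this step in basal cells (adjusted p = 0.0341, edgeR, 0.319% of all genes called) and in LP/alveolar cells (adjusted p = 0.0359, edgeR, 6.91%), lower at day 18.5 both times. Lactation against day 18.5 also gave 0 (0.767%, 2.99% and 0% of all genes), with 1, 4 and 0 members at an unadjusted p under 0.05. DESeq2 called 2, 1 and 0 members for the 3 steps in basal cells (5.03%, 1.24% and 3.77% of all genes), 2, 1 and 6 in LP/alveolar cells (18.4%, 5.47% and 6.41%) and 1, 0 and 0 in ML cells (10%, 0.482% and 0.297%).

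Scaled to the RP total, so that each member is read against its own family, edgeR called 0 members at any step in any class with all libraries in the fit. That fit called 0.00752%, 0% and 0.316% of all genes in basal cells, 1.31%, 0.0293% and 1.32% in LP/alveolar cells and 1.21%, 0% and 0% in ML cells for the 3 steps. Between 0 and 2 members a comparison had an unadjusted p under 0.05 there. Without P7 the same scaling gave 3 calls in basal cells from day 12.5 to day 18.5, in a fit that called 25.3% of all genes and set their median at 0.81. Rpl3 rose by 0.86 (adjusted p = 0.0448, edgeR) and Rps2 by 1.01 (adjusted p = 0.0342, edgeR) on the log2 scale relative to the RP total, and Rpl39l fell (adjusted p = 0.0144, edgeR). On the TMM scale with all libraries the same changes of Rpl3 and Rps2 were 0.08 and 0.24 (adjusted p = 0.991 and 0.959, edgeR). Rpl39l was then also called lower in LP/alveolar cells at that step (adjusted p = 0.0382, edgeR, 11.3% of all genes) and higher in basal cells from adult to day 12.5 (adjusted p = 0.0316, edgeR, 1.91%).

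Most members had the same direction at 1 step. On the TMM scale, which sets the median of all genes near 0, 80 of 82 members were lower at day 18.5 than at day 12.5 in basal cells, with a median log2 change of -0.87 against 0.03 for all genes. In LP/alveolar cells 72 of 82 were lower (median -0.35, all genes -0.01) and in ML cells 78 of 81 (median -0.70, all genes 0.01). From day 18.5 to lactation the medians were -0.04, -0.39 and 0.09. From adult to day 12.5 they were 0.46, 0.38 and 0.003 with P7, and -0.01, -0.01 and -0.44 without it. Since the members of a library rise and fall together, the number of members is not a number of replicates.

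Leaving out P7 brought 4 members past the threshold in LP/alveolar cells between day 18.5 and lactation, where 7.15% of all genes were then called. All 4 fell: Rpl3 by 1.32 on the log2 scale (adjusted p = 0.0219, edgeR), Rplp0 by 1.27 (adjusted p = 0.0474, edgeR), Rps2 by 1.21 (adjusted p = 0.0326, edgeR) and Rpl10a by 1.09 (adjusted p = 0.0491, edgeR). Rpl3 lies near the peptidyl transferase centre, and Rplp0 is the base of the stalk that binds elongation factors. Rplp0 took 21.1 and 16.8 per mille of LP/alveolar RP counts in H and G, 37.8 and 24.3 in F4 and B4, and 19.7 and 13.8 in F11 and D6. F4, where Rplp0 was highest, is also the library that leaned toward long members, of which Rplp0 is one.

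Rps27l, a paralogue of the small-subunit gene Rps27 known as a p53 target, stood against the rest of the family in lactation. In LP/alveolar cells it took 2.34 and 1.66 per mille of RP counts in A10 and D12 and 0.53 in P7. It took 4.51 and 4.84 per mille in H and G, 2.72 and 4.23 in F4 and B4, and 10.1 and 11.8 in F11 and D6. Both lactation libraries were above the 7 others. Relative to the RP total its log2 change was 1.63 (SE 0.668, adjusted p = 0.204, edgeR) from adult to day 12.5 and 1.66 (SE 0.760, adjusted p = 0.550, edgeR) from day 18.5 to lactation, neither past the threshold. Without P7 they were 1.23 (adjusted p = 0.0317, edgeR) and 1.66 (adjusted p = 0.0141, edgeR), in fits that called 17.5% and 11.8% of all genes, while on the TMM scale without P7 neither passed (adjusted p = 0.0649 and 0.0869, edgeR). With that scaling the median of all genes in LP/alveolar cells sat at -0.69 and 0.36 with P7, and at 0.10 and 0.36 without it. For each 1000 counts of its parent Rps27, LP/alveolar cells held 120 counts of Rps27l in A10, 74.1 in D12, 287 and 254 in H and G, 415 and 241 in F4 and B4, and 680 and 474 in F11 and D6. In basal cells the lactation values were 6.42 and 4.61 per mille of RP counts, above 1.94 to 3.24 in the A10, D12, day 12.5 and day 18.5 libraries. In ML cells they were 5.09 and 3.77, the lower of them close to the 3.70 of H.

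Rpl22l1, the paralogue of Rpl22, took 3.64 and 3.34 per mille of LP/alveolar RP counts in A10 and D12, 6.52 and 6.18 in H and G, 5.08 and 8.34 in F4 and B4, and 4.61 and 6.23 in F11 and D6. All 6 pregnancy and lactation libraries were above the adults. The log2 change relative to the RP total from adult to day 12.5 was 1.34 (SE 0.763, adjusted p = 0.329, edgeR), and 0.86 without P7 (SE 0.315, adjusted p = 0.0905, edgeR), not past the threshold in either fit. Stages overlapped for the paralogues Rpl36al, between 1.53 and 3.38 per mille of LP/alveolar RP counts in the 8 libraries other than P7, and Rpl7l1, between 0.116 and 0.204 per mille.

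Rpl39l, a near-copy of the large-subunit gene Rpl39 known from testis and embryonic cells, was the member called at day 12.5. Basal cells held 114 and 192 counts in H and G, against 3, 0 and 5 in A10, P7 and D12, 1 and 0 in F4 and B4, and 3 and 0 in F11 and D6. LP/alveolar cells held 74 and 54 counts at day 12.5, and 0 to 3 in each of the other 7 FVB/NJ libraries of these stages. Both day 12.5 libraries were thus far above the rest in counts, though the lactation basal sums were shallow, and the 3 counts of F11 there stand for 2.72 CPM (95% Poisson interval 0.560 to 7.94). In CPM without milk genes the basal values were 6.85 (95% Poisson interval 5.65 to 8.23) in H and 6.24 (5.39 to 7.19) in G, and the LP/alveolar values were 1.94 and 1.87. The fitted log2 change from adult was 4.70 in basal cells (adjusted p = 0.0379, edgeR) and 3.63 in LP/alveolar cells (adjusted p = 0.0457, edgeR).

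Against so few adult counts, the pooled ratio of day 12.5 to adult Rpl39l was 26.2 in basal cells (95% interval 13.1 to 61.2, counting error only) and 14.1 in LP/alveolar cells (4.71 to 69.1). Against day 18.5 it was 122 (21.8 to 4848) and 26.7 (8.95 to 131), and against lactation 4.71 (1.60 to 23.0) and 13.9 (4.66 to 68.4). The basal call held in 11 of 16 alternative settings and the LP/alveolar call in 4 of 16, so neither is firm. The basal call was lost when H, G, F4 or B4 was left out, and the LP/alveolar call when any 1 library other than D12 was, P7 included (18.8% of all genes called without it). Each fit without H or G has 1 library of that stage. In ML cells H and G held 0 counts, which with their depth allows up to 4.60 and 3.65 CPM. These limits lie below the basal levels of H and G (6.85 and 6.24 CPM) and above their LP/alveolar levels (1.94 and 1.87 CPM). A level like that of LP/alveolar cells could thus not be told from none in ML cells.

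A UMI of Rpl39l was seen in 84 of 4726 basal cells of H (1.78%) and 154 of 8220 of G (1.87%), against 3 of 3964 in A10 (0.0757%) and 4 of 2264 in D12 (0.177%). Median depths were 3220, 3372, 3884 and 4499 UMIs in that order. In P7, at a median of 1914.5 UMIs, 0 of 1174 basal cells held one. Cycling basal cells of H held 10.6 CPM and those without a cycling UMI 5.76 CPM. In G the same values were 6.15 and 5.52 CPM. Fibroblast-gated cells held 17.7 CPM in A10 (14 counts) and 19.9 CPM in the E18.5 mammary library (70 counts), above the basal cells of H and G. The 6 fibroblast markers summed to 275 and 288 CPM in basal cells of H and G and to 635 and 628 CPM in F4 and B4, where Rpl39l had 1 and 0 counts, and their part in the Rpl39l level was not tested. For each 1000 counts of Rpl39, the basal cells of H and G held 1.52 and 1.08 of Rpl39l. Because the sequences of the pair are close, reads could be divided between them in counting, and in basal cells Rpl39 itself took 15.6 and 19.1 per mille of RP counts in H and G and 17.1 and 18.1 in A10 and D12.

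**Figure D4:**
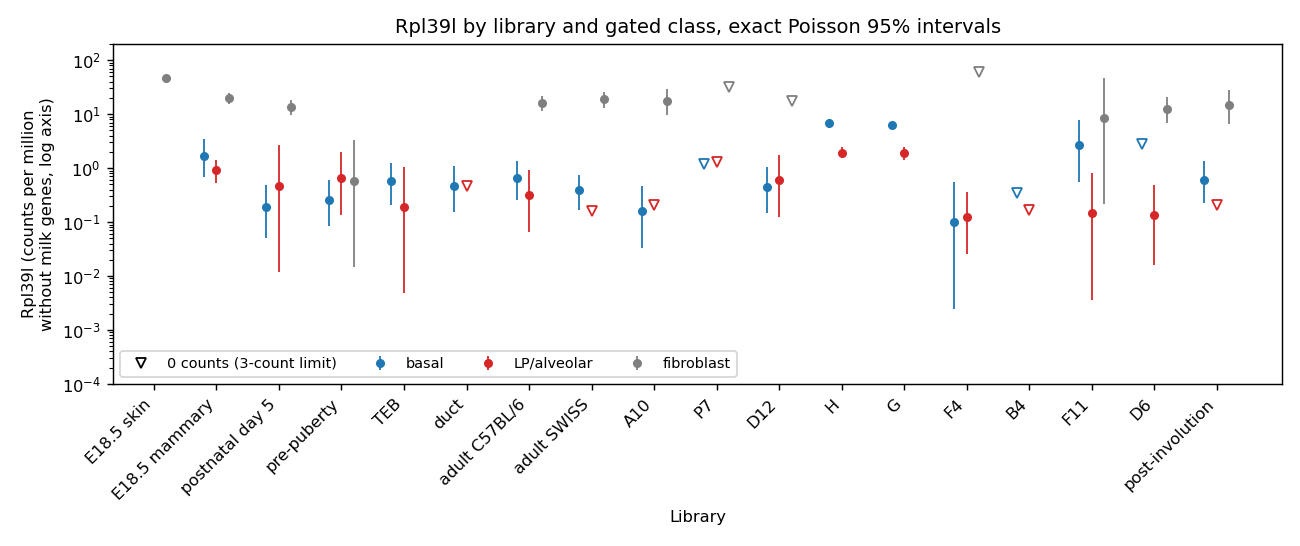
Rpl39l in CPM without milk genes (y axis, log scale) by library (x axis) and gated class (colours). Filled points carry exact 95% Poisson intervals and open triangles mark 0 counts at the 3-count limit. Basal and LP/alveolar points of H and G (6.85 and 6.24, 1.94 and 1.87) stand above the same classes in other FVB/NJ libraries with counts, and fibroblasts reach 45.9 in E18.5 skin.

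From E18.5 to the adult, the C57BL/6 libraries began with the highest RP share of all epithelial cells in the series, though in LP/alveolar cells the duct library (38.4%) was level with E18.5 (38.32%). In all epithelial cells without milk genes it was 38.2% at E18.5, 25.4% at postnatal day 5, 24.0% in pre-puberty, 30.2% in TEB, 34.4% in ducts and 23.8% in the adult, so the postnatal day 5, pre-puberty and adult libraries lay below E18.5, TEB and duct. The SWISS adult was at 29.4% and A10 and D12 at 33.9% and 32.5%. The difference of 14.3 percentage points between E18.5 and the C57BL/6 adult was 10.03 for the LP/alveolar class, 14.9 for basal and for ML cells, and 11.7 for fibroblasts, with the E18.5 classes cut from the less clear gate described above. With 1 library a stage there is no replicate check, and adult libraries alone ranged from 23.8% to 33.9% without P7.

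Those stages also fall into separate sets of cell barcodes. The postnatal day 5, pre-puberty, adult C57BL/6 and SWISS libraries shared 0 to 7 barcodes with each of the 13 other 16-base libraries, at most 0.0956% of the smaller library, whereas pairs among the 13 shared 8 to 253. P7 shared none with any. The methods name pre-puberty, adult C57BL/6 and SWISS as processed together, likewise the E18.5 pair, the TEB and duct pair, and an FVB adult with the post-involution library. E18.5 lies in the set of 13 and the C57BL/6 adult in the set of 4, so stage and barcode set cannot be told apart in that comparison. Within the set of 13, epithelial shares were 38.2% at E18.5, 30.2% and 34.4% at puberty and 33.9% and 32.5% in the A10 and D12 adults, which are of another strain.

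Of 81 members with 50 or more counts at both ends, 73 were higher at E18.5 than in the C57BL/6 adult and 8 lower, with a median log2 difference of 0.63 (quartiles 0.31 and 1.14). Relative to that median the members furthest above were Rpl31 at 1.51, Rpl41 at 1.46 and Rpl13a at 1.33, and those furthest below were Rpl30 at -1.22, Rpl5 at -1.11 and Rpl23 at -0.97. Rpl41 codes for the smallest ribosomal protein and Rpl5 binds 5S ribosomal RNA. Each of the 6 kept its sign in basal cells (1.69, 1.62, 1.47, -1.25, -0.94 and -0.75) and in fibroblasts (1.53, 1.66, 1.45, -1.45, -1.44 and -0.84). The basal cells are part of the epithelial sums that chose the 6, and the fibroblasts come from the same pair of libraries. The kept signs are therefore no separate support.

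The 6 members were picked on a pair of libraries from different barcode sets, so their split between the sets is a description. Rpl31 took 2.79 to 4.02 per mille of RP counts in the set of 4 and 4.94 to 11.4 in the set of 13. Rpl13a took 1.02 to 1.34 and 1.74 to 4.68, Rpl30 11.99 to 13.98 and 3.41 to 7.62, Rpl23 20.9 to 26.3 and 11.1 to 17.7, and Rpl5 6.79 to 11.5 and 3.62 to 5.83. The sets did not overlap for these 5 genes, and Rpl41 overlapped, at 13.9 to 26.4 and 15.3 to 49.9. Of 81 members with a median of 1000 or more counts a library, 24 did not overlap between the sets (29.6%), 12 higher and 12 lower in the set of 4. On the same scale 244 of 4511 genes of that level did not overlap (5.41%), 220 higher and 24 lower in the set of 4. With the E18.5 mammary and adult C57BL/6 libraries left out, which chose the 6, the counts were 25 of 81 (30.9%) and 303 of 4511 (6.72%), a comparison added after seeing the data. Stage and strain also differ between the sets.

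**Figure D5:**
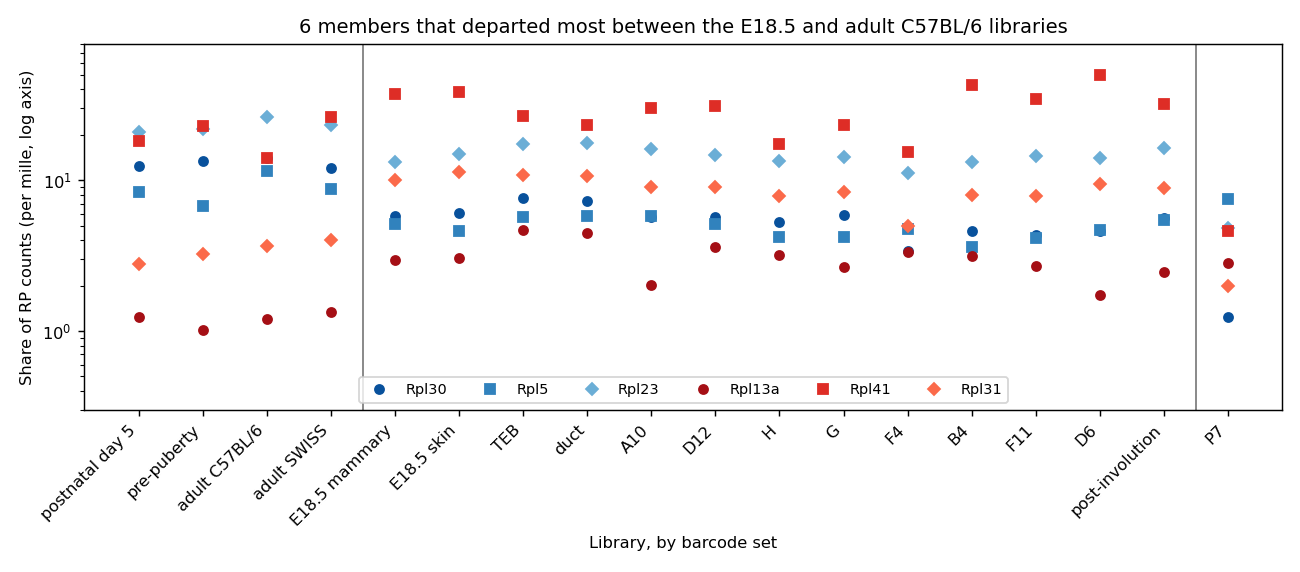
Share of RP counts (per mille, log axis) of the 6 members that departed most between E18.5 and adult C57BL/6, in all kept cells of each library, with vertical lines between the 4 libraries of 1 barcode set, the 13 of the other and P7. Rpl30, Rpl5 and Rpl23 are higher and Rpl31 and Rpl13a lower in the 4 libraries on the left than in each of the 13, which hold the E18.5, adult, pregnancy and lactation stages.

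Over all kept cells, 81 members had a median of 1000 or more counts a library, and their share of RP counts differed by a median of 4.05-fold between the highest and the lowest of 18 libraries, or 2.32-fold without P7. Without P7, 30 members stayed under 2-fold and 5 exceeded 5-fold. The following were chosen after their values were seen. Rpl24, a protein of the intersubunit bridge, was the most even at 1.37-fold, followed by Rpl32 at 1.42-fold. The 5 widest were Rpl29 at 28.8-fold, Rps27l at 6.06-fold, Rps28 at 6.04-fold, Rpl38 at 5.85-fold and Rps21 at 5.52-fold. Rps28, Rpl38 and Rps21 are among the short members, and F4 was lowest for Rps28 at 4.65 per mille.

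Rpl29 varied within stages. It took 6.14 per mille in the D12 adult and 0.63 in the A10 adult, of the same strain and age, and 5.42 in the C57BL/6 and 0.29 in the SWISS adult. The 6 C57BL/6 mammary libraries and the skin held 4.32 to 8.37 per mille, and the FVB/NJ pregnancy, lactation and post-involution libraries 0.58 to 2.01. D12 was thus nearer to the C57BL/6 libraries than to the other FVB/NJ libraries in this gene. Rpl35, with the long pyrimidine run shown above, also parted A10 at 3.56 per mille from D12 at 12.9, while H and G held 16.3 and 13.6. Processed pseudogenes of RP genes are common in the mouse genome, and their part in the counting of these genes was not tested.

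Between classes of the adult gland, where the 5 adult libraries each gave a basal, an LP/alveolar and an ML sum and the library entered as a block, RP genes were higher in LP/alveolar than in basal cells. Of 81 members tested, 52 rose and none fell (edgeR, Benjamini-Hochberg adjusted p under 0.05), where 24.2% of all genes were called higher and 24.4% lower. The members' median log2 difference was 0.33 and that of all genes 0.02. The 52 rises became 20 without A10, 31 without D12 and 35 without P7, again with none lower. The share of all genes called in those fits is not given, so the drop cannot be read as particular to the members. Rpl10, which joins the large subunit late, had the largest difference at 0.62 (SE 0.115, adjusted p = 0.000672, edgeR). Its scaled CPM was 2082 in basal and 3902 in LP/alveolar cells of A10, 4392 and 6600 in D12, 1323 and 2440 in P7, 2416 and 3452 in the C57BL/6 and 1937 and 2257 in the SWISS adult. Rps6, the substrate of S6 kinase, differed by 0.61 (SE 0.0938, adjusted p = 0.000163, edgeR). Both were higher in LP/alveolar cells of 5 of 5 libraries.

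ML cells were set against LP/alveolar cells in the same fit. There 16 members fell and 5 rose, where 23.1% of all genes were called lower and 22.3% higher, with a members' median of -0.13. The calls fell to 10 without A10, without D12 or without the C57BL/6 library, and were 19 without P7. The share of all genes called in those fits is likewise not given. Rps9 fell by 0.48 on the log2 scale (adjusted p = 0.0015, edgeR) and Rps12 by 0.46 (adjusted p = 0.00328, edgeR). Rpl13a rose by 0.58 (adjusted p = 0.00125, edgeR) and Rps27l by 0.46 (adjusted p = 0.00358, edgeR), with Rpl36al, Rpl41 and Rpl27 also higher. Rps27l went from 1053 to 1420 scaled CPM in A10, 618 to 758 in D12, 57 to 95 in P7, 417 to 581 in the C57BL/6 and 686 to 888 in the SWISS adult, higher in ML cells of 5 of 5. Scaled to the RP total, 14 members differed between LP/alveolar and basal cells and 16 between ML and LP/alveolar cells, in fits that called 49.9% and 43.6% of all genes. Without the library block neither comparison called a member, though 23.4% and 18.6% of all genes were called, and no member had an unadjusted p under 0.05. DESeq2 with the block called 50 and 23 members, and its share of all genes called is not given.

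Other genes of the translation pathway were read in the same fits. In LP/alveolar cells from adult to day 12.5, 15 of 78 mitochondrial ribosomal genes rose and none fell, where 5.73% of all genes rose, led by Mrpl53 at 3.19 and Mrpl34 at 2.49 on the log2 scale. Of 32 elongation, initiation and other TOP genes, Eif4ebp1, an mTOR-controlled inhibitor of cap binding, rose by 1.66 and Nme2 by 1.58, and the helicase gene Eif4a2 fell by 1.70, a number of rises near the share of all genes. Of 22 ribosome biogenesis genes, Nhp2 rose by 1.47 and Pes1 by 1.02 in that comparison, and Nop58 fell by 1.82 in ML cells, where 6.96% of all genes were called. No other gene of the 3 lists passed the test in the 9 comparisons. The adult group included P7. There, LP/alveolar non-RP genes as short as the shortest members had a median log2 departure of -1.51 from A10 and D12. The log2 changes of these lists are not given without P7, and the part of P7 in them was not tested. Leaving out P7 also raised the share of all genes called, from 12.3% to 18.8% in LP/alveolar cells from adult to day 12.5. Without P7 the lists gave 33, 13 and 13 calls over the 9 comparisons. The share of all genes called without P7 is not given for each of them, so these counts cannot be read as particular to the lists.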

How the data were processed

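UMI counts per gene and barcode were deposited as 18 matrices, which the authors made with Cell Ranger on mm10 (3.1.0 in the submitters' processing notes, while the file headers give 3.0.2 in 16 libraries and 3.1.0 in 2). Members and gene lists were chosen with earlier results of these data known. Barcodes were kept within the study's limits on genes, counts and mitochondrial share per library. Cells rich in markers of other cell types were set aside, and the rest were gated on the share of basal among basal and luminal marker UMIs (basal at 0.8 or more, luminal at 0.5 or less) and of ML among ML and LP/alveolar marker UMIs (LP at 0.3 or less, ML at 0.7 or more), at cuts set after looking at the marker distributions. Doublets were not called separately. Counts were summed per library and class (20 or more cells) and tested with edgeR 4.0.16 (filterByExpr, TMM, quasi-likelihood test, Benjamini-Hochberg), once more with the effective library size set to the RP total, and with DESeq2 1.42.0 as an alternative. Shares, exact binomial and Poisson intervals (95%) came from Python 3.11.15 with scipy 1.17.1, and cover counting error only. The depth per library limits low members such as Rpl39l. The fits were tested on simulated data. Named genes were the 5 members highest in the adult, the largest 2 called rises and falls per comparison, the 3 highest and 3 lowest at E18.5 against the C57BL/6 adult, and the paralogues with their parents, with 1 result not reported here. Promoter starts came from a RefSeq table of GRCm38.p6.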

Additional observations from a re-analysis of the deposited data

Results flagged for a closer look

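Rpl39l was also counted in cells that enter no comparison above. In the fibroblast-gated cells of E18.5 skin it had 2261 counts, or 45.9 CPM (95% Poisson interval 44.1 to 47.9, counting error only), in 1666 of 8855 cells (18.8%). For each 1000 counts of its parent Rpl39 these cells held 8.40, against 3.01 in fibroblast-gated cells of the E18.5 mammary library. The 2 libraries were processed together, each is a single library, and the difference was not tested.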

How the results depend on the processing

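Each tested stage had 2 or 3 libraries, and 1-library stages gave no test. No paired analysis was possible between stages because the labels name libraries by letters and give no pairing across the 4 FVB/NJ stages compared. Between adult classes the library was the block, and without the block 0 members were called in either comparison (52 and 21 with it). Of the settings tried, none turned a called direction. 462 values stayed near the main value or, for single named genes, kept their direction and side of the threshold. Another 94 moved, and 23 values of single named genes were no longer past the threshold. Near meant equal or within a fixed fold for counts of members, and within the spread between libraries for share ratios, or counting error at E18.5. A ratio could thus cross 1 and still count as near. A count of 0 against a main count of 0 was also near, and such pairs are among the 462. The cause of each move was not tested, and the RP-total scaling of the class comparison and lists, the 28 longest members and the fibroblasts were added after seeing the data.

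Members called, for the steps adult to day 12.5, day 12.5 to day 18.5 and day 18.5 to lactation, were 1, 0 and 0 in basal and in LP/alveolar cells. DESeq2 called 2 and 1 in basal cells at the first and second step, 2, 1 and 6 among LP/alveolar cells and, at the first step, 1 for ML cells. No low-count filter gave 1 in basal cells at the second step, and 2 and 1 in LP/alveolar cells at the first and second. Scaling to the RP total gave 0 at the first step in both classes, as did library totals without TMM, milk genes left out before scaling and a minimum of 1000 genes per cell in LP/alveolar cells. Library totals without TMM gave 44 at the LP/alveolar lactation step. Milk genes, which took most LP/alveolar counts in lactation, stayed in those totals. The share of all genes called in that fit is not given, so the 44 cannot be read as particular to the members. Scaled to the RP total, no filter gave 1 at the first and second step in both classes. Leaving out 1 library gave 0 to 1, 0 to 1 and 0 to 0 in basal cells, 0 to 1, 0 to 1 and 0 to 4 in LP/alveolar cells (4 without P7) and 0 to 0 in ML cells, and, scaled to the RP total, 0 to 1, 0 to 3 and 0 to 0, and 0 to 1 at each LP/alveolar step.

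Where the share of all genes called in a fit is not given above, its counts here are not read as results about the members. Between LP/alveolar and basal adult cells 21 members were called without TMM and 14 scaled to the RP total, and 20 to 56 when 1 library was left out (20 without A10, 31 without D12). Between ML and LP/alveolar cells the last range was 10 to 22 (10 without A10, D12 or the C57BL/6 library). Over the 9 stage comparisons, the translation, biogenesis and mitochondrial ribosomal lists gave 3, 3 and 15 calls, against 16, 9 and 26 with DESeq2, 32, 21 and 74 without TMM, 0 in each scaled to the RP total, and 12, 6 and 30 with no filter. Leaving out 1 library gave 0 to 13, 0 to 13 and 0 to 33 (mitochondrial 8 without F4, 7 without D12, 33 without P7).

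As ratios of mean RP shares without milk genes, the 28 longest members alone gave 0.821 for day 18.5 over day 12.5 and 0.721 for lactation over day 18.5 in basal cells, 0.880 and 0.521 in LP/alveolar cells, and 0.925 for day 18.5 in ML cells. With milk genes in the total the basal lactation ratio was 0.642, and the LP/alveolar ratios were 0.563 and 0.227. The ML lactation ratio of median cells was 1.12 with at least 1000 genes per cell, against 0.929. Leaving out 1 library gave, for the 3 steps, 0.964 to 1.47, 0.599 to 0.703 and 0.813 to 0.954 in basal, 0.956 to 1.45, 0.704 to 0.778 and 0.615 to 0.679 in LP/alveolar, and 0.823 to 1.26, 0.702 to 0.788 and 0.783 to 1.06 in ML cells. In each class the first-step ratio was below 1 without P7, and in ML cells also over the 28 longest members (0.895). For medians of cells the ranges were 0.970 to 1.501, 0.579 to 0.696 and 0.741 to 0.891, then 0.958 to 1.45, 0.704 to 0.773 and 0.595 to 0.693, then 0.830 to 1.28, 0.706 to 0.771 and 0.810 to 1.05. The E18.5 difference of 14.3 points was 14.9 in basal cells, 14.2 without mitochondrial genes, 14.3 at 1000 genes per cell and 11.7 in fibroblasts, and the members' median log2 of 0.63 was 0.65, 0.60 and 0.72 in basal cells, without mitochondrial genes and in fibroblasts.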
